A study of Arabidopsis thaliana with 12 samples.

Results

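The 8 genes described here had some of the largest differences from wild type in 2 Arabidopsis lines that make a repressor form of a transcription factor: CYP76C2 (AT2G45570), ABCG40 (AT1G15520), PXMT1 (AT1G66700), DXPS1 (AT3G21500), NATA1 (AT2G39030), AMY1 (AT4G25000), ELI3-2 (AT4G37990) and AOX1D (AT1G32350). They are 8 of 25665 loci named by a probe and of 20267 loci bright enough to test. They were chosen from these same arrays by how far they lay above wild type, so their own differences are given below as a description, with no test. Among 8196 named genes measured on every array of MYB106SRDX and wild type, 7 of them held places 1 to 4 and 6 to 8 by the difference between those groups. NATA1 held place 12 there and place 8 by the smaller of its differences in the 2 lines. At the edge of the choice, AOX1D lay 7.27 above wild type on the log2 scale in MYB106SRDX and the next gene, PHT3;2, lay 7.20 above it. NATA1 had a smaller difference of 5.02, and the next gene on that scale, JRG21, had 4.99. Other genes lay inside these limits and are not among the 8. SAG13, a senescence-associated gene, held place 5 by the difference in MYB106SRDX with 7.93, and PHT3;2, DREB19 and TI1 held places 9 to 11, above NATA1. By the smaller difference, MSRB8 (6.18), SAG13 (5.74) and TI1 (5.09) stood above NATA1. JRG21, DREB19 and MSRB8 were named after their values were seen.

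RNA came from whole 3-week seedlings of Arabidopsis thaliana, ecotype Columbia-0, with 4 samples each of wild type, 35S:MYB106SRDX:NOS and 35S:WIN1SRDX:NOS. Plants of all 3 groups grew on MS agar with 1% sucrose at 23 °C under 16 h of light and 8 h of dark, and several seedlings of a plate went into a sample. The 35S promoter is active in nearly all plant tissues, and SRDX is a repression motif, modelled on that of SUPERMAN (SUP), that makes a repressor of the factor it is fused to. The factor MYB106 acts in trichomes and epidermis, and WIN1, of the AP2/ERF family, in cuticle formation. The labels do not say whether replicates came from separate plates, or how many transgenic lines there were, so the p-values below measure the spread between these samples only. In whole seedlings, fewer cells of a type and less RNA per cell cannot be told apart.

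Plants under attack, oxidative stress or senescence turn on a broad set of detoxification and defence genes, among them cytochrome P450s, membrane transporters of the ABCG family, methyltransferases and enzymes that make or modify small defence compounds. Mitochondria are part of this response. When the electron transport chain is blocked, alternative oxidases, which pass electrons from ubiquinol straight to oxygen, are induced through NAC transcription factors that move from the endoplasmic reticulum to the nucleus.

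Each of the 12 RNA samples was read on a 1-colour array, with 59.3% to 64.2% of its non-control spots well above background. Values below are log2 intensities from which the log2 of the 75th percentile was subtracted, so that 0 is the level of that percentile on the array. Values are compared between arrays for 1 probe only and not between probes. The transgenes could be seen: MYB106 was at 4.17 ± 0.94 (SD, n = 4) in MYB106SRDX against -2.29 ± 0.65 (SD, n = 4) in wild type, WIN1 was at 5.60 ± 0.20 (SD, n = 4) in WIN1SRDX and well above background on 2 of 4 wild-type arrays, and SUP was at least 4237-fold higher than wild type in MYB106SRDX and at least 10020-fold higher in WIN1SRDX. MYB106SRDX replicate 2 had the lowest MYB106 (2.77) and SUP (3.59) of its group. The tissue label fitted the markers in part: 10 of 10 green shoot markers were well above background on every array. The root markers were summed without the log, so the brighter probes weigh most in the sum. The summed level of 17 root markers lay between 9.41 and 12.2 in wild type, between 7.20 and 17.4 in WIN1SRDX and between 1.54 and 3.67 in MYB106SRDX. Of those 17 markers, 8 to 10 were well above background on an array of MYB106SRDX, 15 to 17 in WIN1SRDX and 16 to 17 in wild type. Of the 17, 13 were lower and 1 higher than wild type in MYB106SRDX, and 5 were lower and 6 higher in WIN1SRDX (adjusted p under 0.05). The part of this difference in the results below was not tested.

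All 8 genes were higher in both lines than in wild type on every array. The log2 difference from wild type ran from 6.62 to 9.16 in MYB106SRDX with a median of 7.85, and from 4.20 to 6.15 in WIN1SRDX with a median of 5.16, against medians of -0.05 and 0.01 over all 20267 genes. Groups did not overlap for 8 of 8 genes in either line, which follows from the choice of the genes. Of all genes tested, 24.4% lay higher without overlap in MYB106SRDX and 22.2% in WIN1SRDX. MYB106SRDX also lay above WIN1SRDX without overlap for 5 of the 8 genes (14.8% of all genes), the exceptions being PXMT1, DXPS1 and AMY1. Most of the 8 rank at the top by their difference in MYB106SRDX, so the choice also favours this order of the lines. The order and the ratios below are therefore a description only. On the log2 scale the difference in WIN1SRDX was between 56.7% (ELI3-2) and 79.7% (DXPS1) of that in MYB106SRDX. A stepwise order with no overlap at either step, from wild type through WIN1SRDX to MYB106SRDX, was found for 2.47% of all genes.

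**Figure D1:**
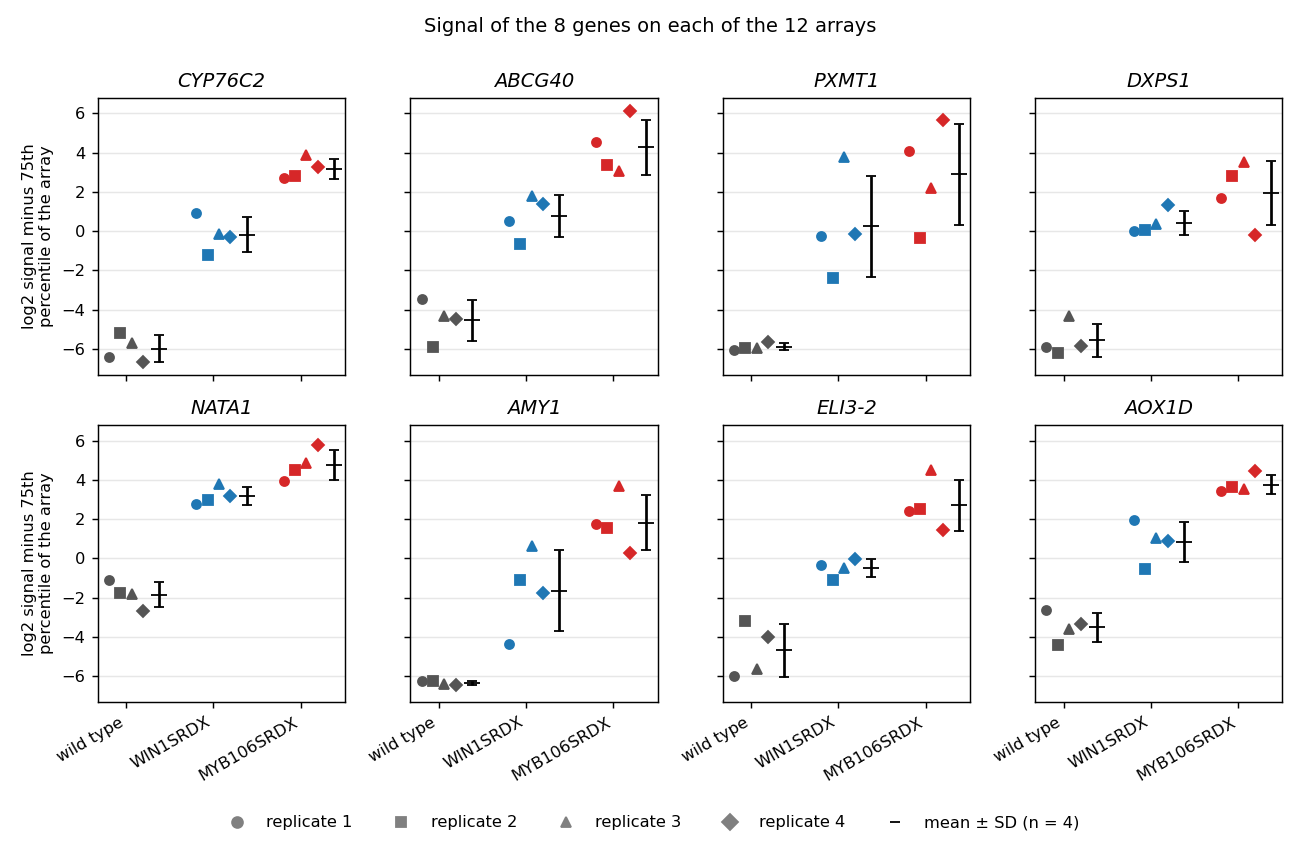
Log2 intensity minus that of the 75th percentile of its array (vertical axis) for the 8 genes on the 12 arrays; symbols mark the replicate number, and black bars give the mean ± SD of 4 arrays. Wild type lies below both lines in every panel, and PXMT1 in both lines and AMY1 in WIN1SRDX have the widest spread.

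The wild-type level of most of these genes was close to the lowest signal that the arrays measured. All 8 probes were well above background on all 12 arrays, but the dimmest wild-type value lay only 0.56 above the lowest signal well above background of its array for AMY1 and 0.59 above it for CYP76C2 on the log2 scale, against 4.60 for NATA1 and 2.94 for AOX1D. The size of a fold change from such a level depends on how background is removed. An alternative used normexp in place of the scanner's own background correction, with an offset of 50 added to each intensity. The differences in MYB106SRDX then ran from 6.12 (DXPS1) to 7.86 (ABCG40). Those in WIN1SRDX ran from 3.102 (AMY1) to 4.85 (NATA1). Wild-type intensities of AMY1 were 23.7 to 27.6, and an offset of that size by itself makes folds from such a level smaller. The parts of the offset and of the background correction were not separated. Within the 3 slides that each held all groups, MYB106SRDX lay 5.41 to 11.28 above wild type and WIN1SRDX 1.91 to 7.47. All 24 gene and slide pairs of each line were above 0, which follows from the lack of overlap with wild type and is no separate check. MYB106SRDX lay above WIN1SRDX, an order that the choice of the genes favours, in 23 of 24 pairs, the exception being DXPS1 on slide 3 at -1.06.

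ABCG40 encodes a full-size ABC transporter of the plasma membrane that imports abscisic acid. It read 4.54, 3.39, 3.05 and 6.15 in MYB106SRDX replicates 1 to 4, 0.54, -0.66, 1.77 and 1.38 in WIN1SRDX, and -3.46, -5.93, -4.32 and -4.50 in wild type. The 3 groups did not overlap, and MYB106SRDX replicate 4 stood highest of all arrays. The log2 difference from wild type was 8.83 ± 0.76 (SE, n = 4 against 4) in MYB106SRDX, or 456-fold, and 5.31 ± 0.76 in WIN1SRDX, or 39.6-fold. Without MYB106SRDX replicate 4 the first of these was 8.21 and the difference between the lines was 2.90 in place of 3.53.

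Other full-size ABCG transporters moved in both directions and by less. Of 14 relatives on the array 13 were tested, and in MYB106SRDX 5 rose and 6 fell with a median of -0.47, where 23.6% of all genes rose and 28.5% fell at an adjusted p under 0.05. ABCG43 rose by 3.18 ± 0.36 (adjusted p = 4.5e-05) and ABCG42 by 2.40 ± 0.29 (adjusted p = 6.99e-05) in MYB106SRDX, while ABCG33 fell by 1.70 ± 0.23 (adjusted p = 0.000158). In WIN1SRDX 1 of the 13 rose and 3 fell with a median of 0.10, where 17.5% of all genes rose and 15% fell, and ABCG43 was 0.53 ± 0.36 higher (adjusted p = 0.271). ABCG36, a transporter of pathogen defence, rose by 0.49 ± 0.12 in MYB106SRDX (adjusted p = 0.00541) and fell by 0.65 ± 0.12 in WIN1SRDX (adjusted p = 0.00239), and the lines differed by 1.14 (adjusted p = 4.78e-05). The number that rose in MYB106SRDX was 3 without MYB106SRDX replicate 2 or 3 or without wild-type replicate 2 or 4, and the 1 that rose in WIN1SRDX did not pass without WIN1SRDX replicate 1 or 4 or without wild-type replicate 1, 2 or 4. ABCG39, which no MYB106SRDX array measured well above background, was at least 1.28-fold lower there (adjusted p = 3.38e-05) and ABCG41 fell by 0.81 ± 0.23 (adjusted p = 0.0121), but with normexp these values were 0.08 and 0.23 above wild type.

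CYP76C2 is a cytochrome P450 known for its induction in the hypersensitive response and in ageing leaves, and belongs to a subfamily with enzymes that oxidise the monoterpene alcohol linalool. It read 2.73, 2.80, 3.86 and 3.28 in MYB106SRDX replicates 1 to 4, 0.95, -1.22, -0.16 and -0.29 in WIN1SRDX, and -6.39, -5.20, -5.68 and -6.68 in wild type. No groups overlapped. This gene had the largest difference of the 8 in MYB106SRDX on this scale, but with the normexp background correction ABCG40 (7.86) lay above it (7.54). CYP76C2 thus differed from wild type by 9.16 ± 0.46 (SE, n = 4 against 4), or 570.4-fold, in MYB106SRDX and 5.81 ± 0.46, or 56.0-fold, in WIN1SRDX.

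The neighbouring gene of the same subfamily, CYP76C1, whose product oxidises linalool in flowers, went the other way. It fell by 0.74 ± 0.22 in MYB106SRDX (adjusted p = 0.0163) and by 1.03 ± 0.22 in WIN1SRDX (adjusted p = 0.00544). CYP76C3, dim on all arrays of wild type and WIN1SRDX (none well above background), was higher in MYB106SRDX than in wild type by at least 4.76-fold (adjusted p = 0.000115). CYP76C6 was 0.83 ± 0.54 lower in MYB106SRDX (adjusted p = 0.219), and CYP76C4, CYP76C5 and CYP76C7 were too dim to test. The linalool synthase gene TPS14 was at least 1.88-fold lower in MYB106SRDX (adjusted p = 5e-06), and in WIN1SRDX its fall was at least 2.02-fold (adjusted p = 2.28e-05). The other linalool synthase gene, TPS10, was at least 1.59-fold lower in MYB106SRDX (adjusted p = 0.0201). With normexp TPS14 passed in neither line (adjusted p = 0.700 in MYB106SRDX and 0.279 in WIN1SRDX) and TPS10 did not pass in MYB106SRDX (adjusted p = 0.988). TPS10 also missed the threshold without wild-type replicate 4 (adjusted p = 0.0519). Over the 5 of 10 genes of this list that could be tested, 1 rose and 3 fell in MYB106SRDX with a median of -0.83. Among all genes 23.6% rose and 28.5% fell in that line, and 17.5% rose and 15% fell in WIN1SRDX. In WIN1SRDX none rose and 2 fell with a median of -1.03 (limma, with the same counts at an unadjusted p under 0.05).

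PXMT1 encodes a SABATH methyltransferase, one of a family that methylates small acids and alkaloid-like compounds. It read 4.06, -0.36, 2.21 and 5.65 in MYB106SRDX replicates 1 to 4, -0.27, -2.40, 3.80 and -0.12 in WIN1SRDX, and -6.03, -5.97, -5.95 and -5.63 in wild type. Wild type was narrow, with an SD of 0.18, whereas the SD was 2.58 in each line, and the 2 lines overlapped: MYB106SRDX was the higher in 12 of 16 pairs of arrays. Its difference from wild type was 8.79 ± 1.36 (SE, n = 4 against 4), or 442-fold, in MYB106SRDX and 6.15 ± 1.36, or 70.9-fold, in WIN1SRDX. It ran from 7.87 without MYB106SRDX replicate 4 to 9.87 without replicate 2, and in WIN1SRDX from 4.97 without replicate 3 to 7.03 without replicate 2.

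Its relatives moved both ways. Of 23 other SABATH genes 15 were tested, and in MYB106SRDX 1 rose and 4 fell with a median of -0.15. In WIN1SRDX 4 rose and 3 fell with a median of 0.51. The shares of all genes that rose and fell were 23.6% and 28.5% in MYB106SRDX and 17.5% and 15% in WIN1SRDX. The riser, AT5G38780, rose by 4.20 ± 0.47 in MYB106SRDX (adjusted p = 4.22e-05) and by 2.19 ± 0.47 in WIN1SRDX (adjusted p = 0.00519). IAMT1, which methylates the auxin indole-3-acetic acid, fell by 4.76 ± 0.54 in MYB106SRDX (adjusted p = 4.7e-05) and by 1.69 ± 0.54 in WIN1SRDX (adjusted p = 0.0332). AT5G37990 fell by 4.52 ± 0.38 in MYB106SRDX (adjusted p = 7.71e-06), was 1.05 ± 0.38 higher in WIN1SRDX (adjusted p = 0.0582), and differed between the lines by 5.56 (adjusted p = 3.2e-06). It was well above background on 1 of 4 MYB106SRDX arrays, and with normexp it fell by 1.89 in that line (adjusted p = 0.000114) and rose by 0.92 in WIN1SRDX (adjusted p = 0.0158). AT3G21950 fell by 6.34 ± 0.71 in MYB106SRDX (adjusted p = 4.27e-05) and by 2.34 ± 0.71 in WIN1SRDX (adjusted p = 0.0268). It too was well above background on 1 of 4 MYB106SRDX arrays, and fell by 2.61 there with normexp (adjusted p = 2.43e-05). AT5G38100 rose by 1.83 ± 0.37 in WIN1SRDX (adjusted p = 0.00413). The calls of IAMT1 and AT3G21950 in WIN1SRDX were lost without any one of the wild-type replicates (adjusted p up to 0.0863 and 0.0700 over all settings that lost them). Without those replicates the number that fell in WIN1SRDX was 1, as it was without WIN1SRDX replicate 1, and the number that rose was 2 without wild-type replicate 1 or 2. The number that rose in MYB106SRDX was 3 without MYB106SRDX replicate 2, and 2 without MYB106SRDX replicate 4 or WIN1SRDX replicate 2.

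DXPS1 is named as a 1-deoxy-D-xylulose 5-phosphate synthase, after the enzyme that opens the plastid MEP route to isoprenoids. It read 1.68, 2.83, 3.54 and -0.22 in MYB106SRDX replicates 1 to 4, 0.01, 0.04, 0.36 and 1.31 in WIN1SRDX, and -5.88, -6.21, -4.34 and -5.85 in wild type. The lines overlapped each other, since MYB106SRDX replicate 4 fell below all 4 WIN1SRDX arrays. The difference from wild type was 7.53 ± 0.73 (SE, n = 4 against 4), or 184-fold, in MYB106SRDX and 5.996 ± 0.73, or 63.8-fold, in WIN1SRDX. Between the lines it was 1.53 ± 0.73, the smallest of the 8 genes, and without MYB106SRDX replicate 4 it was 2.26 and the difference from wild type 8.25.

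The enzymes of the MEP route itself stayed within a narrow range in both lines. DXS, which makes most of the deoxyxylulose phosphate of the plastid, was 0.40 ± 0.28 lower in MYB106SRDX (adjusted p = 0.263) and 0.04 ± 0.28 lower in WIN1SRDX (adjusted p = 0.934), and DXPS3, the other relative, was 0.16 ± 0.12 lower in MYB106SRDX (adjusted p = 0.310). Of the 12 other genes of the list, all tested, 3 rose and 1 fell in MYB106SRDX with values between -1.03 and 0.84 and a median of 0.03. In WIN1SRDX 2 rose and 1 fell with values between -0.61 and 0.75 and a median of -0.01. Over all genes, 23.6% rose and 28.5% fell in MYB106SRDX, and 17.5% rose and 15% fell in WIN1SRDX. ISPD fell by 1.03 ± 0.18 in MYB106SRDX (adjusted p = 0.000822) and by 0.61 ± 0.18 in WIN1SRDX (adjusted p = 0.0245). GPS1, a geranyl diphosphate synthase, rose by 0.84 ± 0.12 in MYB106SRDX (adjusted p = 0.000279) and by 0.75 ± 0.12 in WIN1SRDX (adjusted p = 0.00138). The isomerase gene IPP1 rose by 0.27 ± 0.10 in MYB106SRDX (adjusted p = 0.0467) and by 0.33 ± 0.10 in WIN1SRDX (adjusted p = 0.0342), but these calls were lost under 15 and 8 of 23 other settings. In WIN1SRDX the number that rose was 1 without any one of the wild-type replicates or without WIN1SRDX replicate 1 or 4, and ISPD did not pass without wild-type replicate 2, 3 or 4. In MYB106SRDX the number that fell was 2 without replicate 2 of that line.

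ELI3-2 is an elicitor-activated gene of the cinnamyl alcohol dehydrogenase (CAD) family, whose enzyme reduces aromatic aldehydes. It read 2.39, 2.50, 4.53 and 1.45 in MYB106SRDX replicates 1 to 4, -0.33, -1.09, -0.51 and -0.03 in WIN1SRDX, and -5.99, -3.17, -5.63 and -3.98 in wild type. No groups overlapped, and its wild-type SD of 1.34 was the largest of the 8 genes. The difference from wild type was 7.41 ± 0.72 (SE, n = 4 against 4), or 170.0-fold, in MYB106SRDX and 4.20 ± 0.72, or 18.4-fold, in WIN1SRDX. Without MYB106SRDX replicate 3 the difference in that line was 6.81.

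ELI3-1, the neighbouring gene and closest relative in name, was 0.09 ± 0.42 above wild type in MYB106SRDX (adjusted p = 0.868) and 0.13 ± 0.42 below it in WIN1SRDX (adjusted p = 0.83). Of the 8 other CAD genes, all tested, 2 rose and 4 fell in MYB106SRDX with a median of -1.42. Shares over all genes were 23.6% higher and 28.5% lower in that line, and 17.5% higher and 15% lower in WIN1SRDX. CAD5 and CAD4 encode the main enzymes of lignin monomer synthesis. CAD5 rose by 2.09 ± 0.19 in MYB106SRDX (adjusted p = 1.24e-05) and by 1.20 ± 0.19 in WIN1SRDX (adjusted p = 0.00113), whereas CAD4 fell by 1.80 ± 0.43 in MYB106SRDX (adjusted p = 0.00517) and was 0.93 ± 0.43 higher in WIN1SRDX (adjusted p = 0.122). CAD1 rose by 1.35 ± 0.13 in MYB106SRDX (adjusted p = 1.4e-05) and by 0.76 ± 0.13 in WIN1SRDX (adjusted p = 0.00138). In WIN1SRDX 2 rose and none fell with a median of 0.42 (limma, 1 lower at an unadjusted p under 0.05), and 1 fell without WIN1SRDX replicate 2. CAD2, CAD3 and CAD6 fell by 1.05 ± 0.30 (adjusted p = 0.0126), 1.84 ± 0.29 (adjusted p = 0.000434) and 1.79 ± 0.32 (adjusted p = 0.000892) in MYB106SRDX, and with normexp CAD2 and CAD3 were 0.01 and 0.11 below wild type (adjusted p = 0.968 and 0.683). CAD9 was 1.84 ± 0.92 lower (adjusted p = 0.115). The root markers were lower in the same line as these falls, and their part was not tested.

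**Figure D2:**
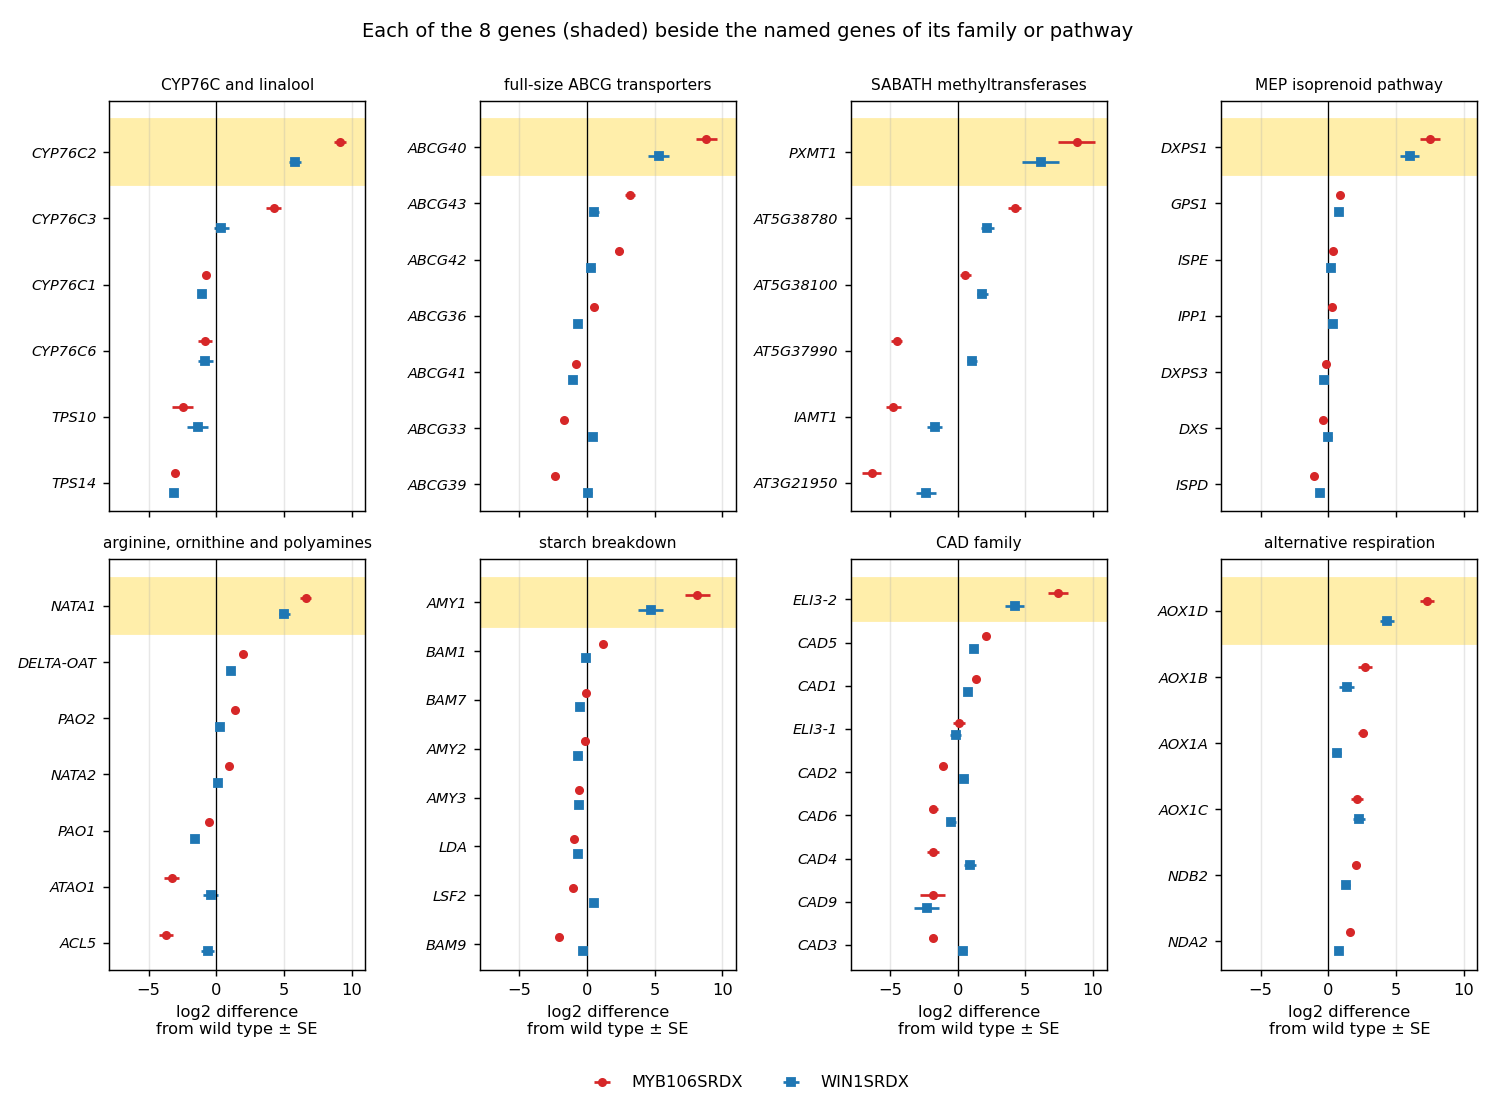
Log2 difference from wild type (horizontal axis, ± SE, 4 arrays a group) in MYB106SRDX and WIN1SRDX for each of the 8 genes, shaded at the top of its panel, and the named genes of its family or pathway. Genes too dim to test are left out, and points of genes not well above background in a group show the measured means. Each shaded gene lies to the right of all its named relatives, with ELI3-1 near 0.

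NATA1 acetylates ornithine, which draws it away from arginine and polyamine synthesis, and is induced by jasmonate. It read 3.96, 4.52, 4.83 and 5.75 in MYB106SRDX replicates 1 to 4, 2.75, 2.95, 3.78 and 3.19 in WIN1SRDX, and -1.12, -1.79, -1.82 and -2.67 in wild type. The groups did not overlap, although the lowest MYB106SRDX array stood only 0.18 above the highest of WIN1SRDX. The difference from wild type was 6.62 ± 0.41 (SE, n = 4 against 4), or 98.1-fold, in MYB106SRDX and 5.02 ± 0.41, or 32.4-fold, in WIN1SRDX, with the smallest SE of the 8 genes.

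NATA2, the sister gene, rose by 0.92 ± 0.18 in MYB106SRDX (adjusted p = 0.00159) and was 0.14 ± 0.18 higher in WIN1SRDX (adjusted p = 0.585). Of 20 other genes of arginine, ornithine and polyamine metabolism, all tested, 7 rose and 2 fell in MYB106SRDX with a median of 0.44. In WIN1SRDX 6 rose and 1 fell with a median of 0.24. Among all genes 23.6% rose and 28.5% fell in MYB106SRDX, and 17.5% rose and 15% fell in WIN1SRDX. DELTA-OAT, the aminotransferase that uses ornithine in the mitochondrion, rose by 1.97 ± 0.16 in MYB106SRDX (adjusted p = 4.97e-06) and by 1.11 ± 0.16 in WIN1SRDX (adjusted p = 0.00058). PAO2, a polyamine oxidase, rose by 1.37 ± 0.23 in MYB106SRDX (adjusted p = 0.000563), while PAO1 fell by 1.57 ± 0.23 in WIN1SRDX (adjusted p = 0.000751). ACL5, which makes thermospermine in vascular tissue, fell by 3.70 ± 0.49 in MYB106SRDX (adjusted p = 0.000136), and ATAO1, an amine oxidase gene well above background on 3 of 4 arrays of that line, fell by 3.29 ± 0.56 (adjusted p = 0.000684), or by 1.69 with normexp (adjusted p = 0.000224). The root markers were lower in that line too, and their part was not tested.

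AMY1 encodes a secreted alpha-amylase that appears in senescing and stressed leaves. It read 1.76, 1.57, 3.68 and 0.25 in MYB106SRDX replicates 1 to 4, -4.35, -1.10, 0.62 and -1.79 in WIN1SRDX, and -6.27, -6.26, -6.42 and -6.47 in wild type. Wild type had an SD of 0.10, and the lines overlapped by a single pair, WIN1SRDX replicate 3 standing above MYB106SRDX replicate 4. The difference from wild type was 8.17 ± 0.94 (SE, n = 4 against 4), or 288-fold, in MYB106SRDX and 4.70 ± 0.94, or 26.0-fold, in WIN1SRDX. It was 7.55 without MYB106SRDX replicate 3, and in WIN1SRDX it was 3.94 without replicate 3 and 5.60 without replicate 1.

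No other gene of starch breakdown was near this value in either line. AMY2 was 0.12 ± 0.31 lower than wild type in MYB106SRDX (adjusted p = 0.771) and 0.65 ± 0.31 lower in WIN1SRDX (adjusted p = 0.125), and the plastid enzyme AMY3 was 0.57 ± 0.24 lower in MYB106SRDX (adjusted p = 0.0697). Of 23 other genes, all tested, 4 rose and 3 fell in MYB106SRDX, where 23.6% of all genes rose and 28.5% fell. The 23 values in MYB106SRDX lay between -2.15 and 1.21 with a median of -0.12. BAM1, a plastid beta-amylase of stressed leaves, rose by 1.21 ± 0.21 (adjusted p = 0.000693). BAM9 fell by 2.04 ± 0.26 (adjusted p = 0.00012), the phosphatase gene LSF2 by 1.01 ± 0.24 (adjusted p = 0.00516) and the debranching enzyme gene LDA by 0.97 ± 0.18 (adjusted p = 0.00124). In WIN1SRDX none of the listed genes rose and 2 fell, where 17.5% of all genes rose and 15% fell. The median was -0.07 (limma, 0 higher and 5 lower at an unadjusted p under 0.05). The 2 were LDA, lower by 0.69 ± 0.18 (adjusted p = 0.0147), and BAM7, lower by 0.52 ± 0.12 (adjusted p = 0.00755). The number that rose in MYB106SRDX was 1 without MYB106SRDX replicate 3 or wild-type replicate 3 or 4, and 2 without MYB106SRDX replicate 2 or wild-type replicate 2. Without MYB106SRDX replicate 2 the number that fell was 5 in that line and 4 in WIN1SRDX.

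AOX1D encodes an alternative oxidase of the inner mitochondrial membrane. It read 3.42, 3.64, 3.51 and 4.47 in MYB106SRDX replicates 1 to 4, 1.96, -0.52, 1.01 and 0.86 in WIN1SRDX, and -2.63, -4.43, -3.60 and -3.36 in wild type. No groups overlapped, and the MYB106SRDX arrays were the most alike of any of the 8 genes, with an SD of 0.48. From wild type it differed by 7.27 ± 0.51 (SE, n = 4 against 4), or 154-fold, in MYB106SRDX and 4.34 ± 0.51, or 20.2-fold, in WIN1SRDX.

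Of the 8 pathways and families, alternative respiration was the one with the highest median among the other genes. In MYB106SRDX 6 of its 10 tested genes rose and 1 fell with a median of 2.08, where 23.6% of all genes rose and 28.5% fell. In WIN1SRDX 4 rose and none fell with a median of 1.05 (limma, 1 lower at an unadjusted p under 0.05). There 17.5% of all genes rose and 15% fell. AOX1A, the main stress-induced alternative oxidase of leaves, rose by 2.53 ± 0.33 in MYB106SRDX (adjusted p = 0.000118) and was 0.61 ± 0.33 higher in WIN1SRDX (adjusted p = 0.174), and the lines differed by 1.91 (adjusted p = 0.00103). AOX1C rose by 2.11 ± 0.44 in MYB106SRDX (adjusted p = 0.00245) and by 2.28 ± 0.44 in WIN1SRDX (adjusted p = 0.0032). AOX1B, which no wild-type array measured well above background, was higher by at least 3.85-fold in MYB106SRDX (adjusted p = 0.00175), while AOX2 was too dim to test. The alternative NADH dehydrogenase genes NDB2 and NDA2 rose by 2.04 ± 0.31 (adjusted p = 0.000308) and 1.58 ± 0.19 (adjusted p = 7.41e-05) in MYB106SRDX, and by 1.30 ± 0.31 (adjusted p = 0.00848) and 0.79 ± 0.19 (adjusted p = 0.00951) in WIN1SRDX. The single fall in MYB106SRDX, of the NADPH dehydrogenase gene NDB1 (named after its values were seen), was lost without MYB106SRDX replicate 2 or wild-type replicate 4. It was also lost with the mean of its 2 probes in place of the brighter one, and with the slide as a block. Without WIN1SRDX replicate 3, 2 genes fell.

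Genes of the mitochondrial dysfunction response also rose in MYB106SRDX, 7 of the 9 with none lower and a median of 2.43 (limma, 7 higher and 0 lower at an unadjusted p under 0.05). This count held at 7 under each of 23 other settings. Among all genes 23.6% rose and 28.5% fell in that line. UGT74E2, an auxin glucosyltransferase gene, rose by 4.10 ± 0.40 (adjusted p = 1.94e-05). OM66, a gene of an outer mitochondrial membrane protein, rose by 3.43 ± 0.55 (adjusted p = 0.000443), SOT12, a sulfotransferase gene, by 2.83 ± 0.43 (adjusted p = 0.00034), and AT2G21640 by 2.43 ± 0.44 (adjusted p = 0.000995). Of the regulators, NAC013 rose by 2.36 ± 0.34 (adjusted p = 0.000228) and NAC017 was 0.11 ± 0.09 lower (adjusted p = 0.336). In WIN1SRDX 3 rose and 1 fell with a median of 1.31, where 17.5% of all genes rose and 15% fell. AT2G21640 rose by 1.83 ± 0.44 there (adjusted p = 0.00944), NAC013 by 1.31 ± 0.34 (adjusted p = 0.0133) and UGT74E2 by 1.33 ± 0.40 (adjusted p = 0.028), while NAC017 fell by 0.38 ± 0.09 (adjusted p = 0.01). The call of UGT74E2 in WIN1SRDX was lost without WIN1SRDX replicate 1 or 3 or without wild-type replicate 2, 3 or 4 (adjusted p up to 0.0761).

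**Figure D3:**
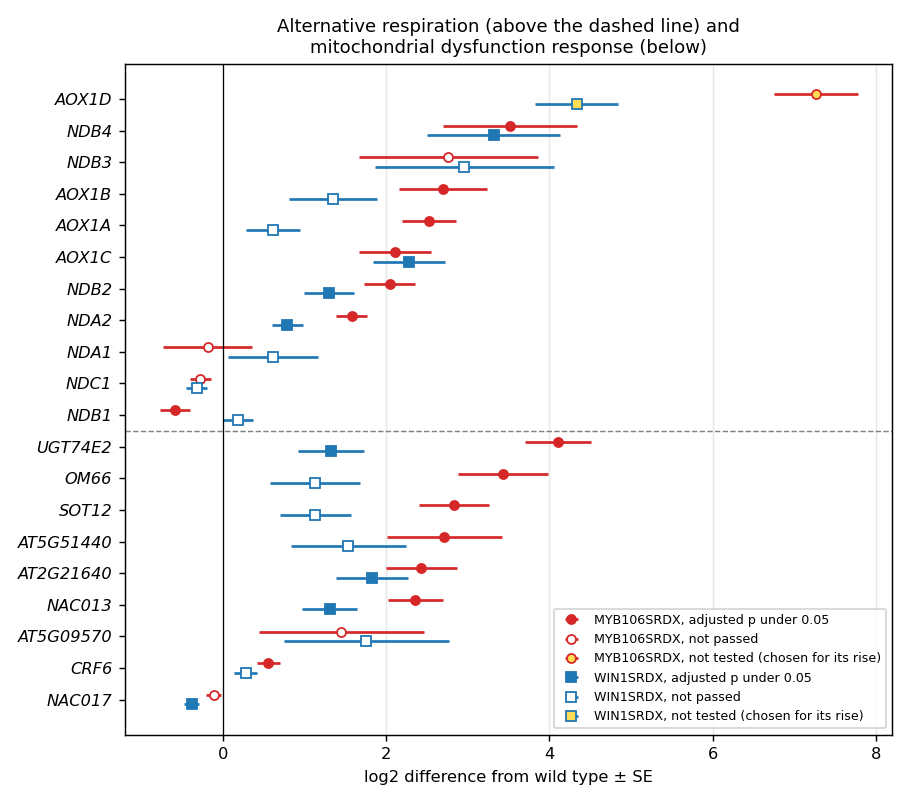
Log2 difference from wild type (horizontal axis, ± SE, 4 arrays a group) for the tested genes of alternative respiration and of the mitochondrial dysfunction response in MYB106SRDX (circles) and WIN1SRDX (squares); filled symbols passed at an adjusted p under 0.05, and yellow marks AOX1D, which was not tested. AOX1D lies at 7.27 and 4.34, and the medians of the other genes are 2.08 and 1.05 above the dashed line and 2.43 and 1.31 below it.

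Over the 9 lists together, 36 of 115 tested genes rose and 24 fell in MYB106SRDX, and 22 rose and 13 fell in WIN1SRDX. These counts stand beside shares of 23.6% and 28.5% of all genes in MYB106SRDX and 17.5% and 15% in WIN1SRDX.

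Among the replicates of a line, the 8 genes did not move as a block. In MYB106SRDX, replicate 4 was the highest array for ABCG40, PXMT1, NATA1 and AOX1D and the lowest for DXPS1, AMY1 and ELI3-2, while replicate 3 was the highest for CYP76C2, DXPS1, AMY1 and ELI3-2. In WIN1SRDX, replicate 2 was the lowest array for 5 of the 8 genes and replicate 3 the highest for 4. The array of WIN1SRDX replicate 2 had 181 outlier spots, against 2 to 17 on the other arrays. Any part of array quality in its low values was not tested. The SD of the 8 genes had a median of 0.71 in wild type, 0.96 in WIN1SRDX and 1.35 in MYB106SRDX, against 0.14, 0.28 and 0.31 for all genes. In wild type most of the 8 lay near the lowest signal measured, while the tested genes include many brighter ones. The wild-type SDs are therefore compared at unlike levels of signal.

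**Figure D4:**
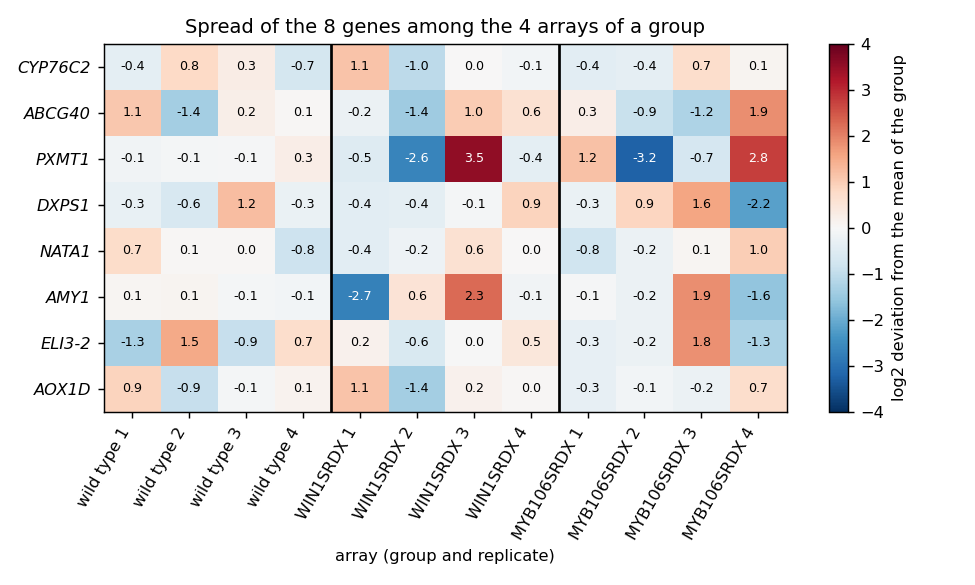
Log2 deviation of each of the 8 genes (rows) on each array (columns) from the mean of the 4 arrays of its group; red is above and blue below that mean. MYB106SRDX replicate 4 is above the mean for ABCG40 and PXMT1 and below it for DXPS1, AMY1 and ELI3-2.

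After each gene was centred on its own mean, the closest pair among the 8 over the 12 arrays was NATA1 and AOX1D, with a root mean square difference of 0.90, and the farthest was PXMT1 and DXPS1 with 2.49. The genes nearest to the median pattern of the 8 were SAG13 (0.67), the mitochondrial phosphate carrier gene PHT3;2 (0.68) and AT5G44990 (0.72), and CYP76C2 itself lay at 0.67. The measure keeps the differences between groups by which the 8 were chosen. Genes with like differences therefore lie near by construction, and shared regulation was not tested. AT5G44990 was well above background on 0 of 4 wild-type arrays, and its difference in MYB106SRDX was 7.17 on this scale and 3.49 with normexp, so its likeness rests on background signal in wild type. SAG13 lay 7.93 ± 0.43 above wild type in MYB106SRDX and 5.74 ± 0.43 in WIN1SRDX.

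The nearest gene of each member was also found over the same 12 arrays, by the same measure and with the same limit. AOX1D had the closest match, AT1G26420, at 0.45, and the neighbouring locus AT1G26410 was the nearest to CYP76C2 at 0.98. NATA1 lay nearest to AT1G67000 (0.66), ABCG40 to NHL25 (0.69), ELI3-2 to AT5G58840 (0.87) and AMY1 to AT5G59390 (0.94). DXPS1 lay nearest to TI1, a trypsin inhibitor gene, at 0.93, and PXMT1 to CYP71A13, an enzyme gene of the defence compound camalexin, at 1.14, the loosest match of the 8. Of these 8 nearest genes, NHL25, CYP71A13, AT5G59390 and AT5G58840 were well above background on 0 of 4 wild-type arrays, and AT1G26410 and AT1G67000 on 2 of 4. Their likeness therefore rests on wild-type signal at or near background. With normexp, the difference in MYB106SRDX was 4.17 for NHL25 against 7.86 for ABCG40, 3.14 for AT5G58840 against 6.30 for ELI3-2, and 3.66 for AT5G59390 against 6.30 for AMY1. It was 4.79 for CYP71A13 against 7.31 for PXMT1, 3.30 for AT1G67000 against 6.44 for NATA1, and 6.41 for AT1G26410 against 7.54 for CYP76C2. AT1G26420 and TI1 were well above background on all 12 arrays. Further down the order of differences in MYB106SRDX, the glutathione transferase gene GSTU12 lay 6.54 above wild type, PROPEP3, which encodes a precursor of a danger-signal peptide, 6.47, and MYB106 itself 6.46.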

How the data were processed

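Total RNA of 12 samples was labelled with Cy3 and hybridised to 1-colour Agilent arrays; per the submitters' processing notes, Agilent Feature Extraction (version 9.1.3.1) read them. The deposited scanner files hold a processed intensity per spot, already corrected for background, with flags, per the file headers. The authors' value table holds a ratio: the authors divided that intensity by a constant, 1083 for MYB106SRDX, 996 for WIN1SRDX and 1264 for wild type (100% of probes within 1%), with no log and no centring. The medians of its columns, in the order of the replicate numbers, were 0.0996, 0.0966, 0.0993 and 0.109 (wild type), 0.0977, 0.0867, 0.137 and 0.110 (WIN1SRDX), and 0.0698, 0.0598, 0.0652 and 0.0758 (MYB106SRDX). It served as an alternative.

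From the 37685 non-control spots, outlier spots were dropped, the log2 intensity was taken, the 75th percentile of the array was subtracted, and the probe with the highest mean stood for a locus. Genes entered the test where some group had all 4 arrays well above background. Testing was done in R 4.3.3 by limma 3.58.1 (lmFit, then eBayes, all 12 arrays in a fit, 9 residual degrees of freedom) with Benjamini-Hochberg adjustment over 20267 genes; "rose" and "fell" mean an adjusted p under 0.05. "At least" compares the brighter mean with the lowest signal well above background where a group was dim on every array. The SE of a difference comes from the spread that the limma fit shares over the 3 groups, so it is near equal in both lines. Where the SDs of the groups are unlike, as for PXMT1 and AMY1, it does not describe the groups compared. The number of arrays limits the precision. The script was tested on simulated data. Of the loci, 25449 were found in a RefSeq table (TAIR10.1), used for names and for which genes are neighbours.

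The labels do not say that replicate numbers pair the samples, which were treated as unpaired. Same-numbered arrays correlated between -0.164 and 0.195 in their deviations from the group means, and 1 of 12 pairs exceeded 0.1. Weak correlations over so few arrays cannot exclude a pairing. Normexp was run on the median spot signal and median local background, with an offset of 50 added to each intensity. The mean spot signal, which had been planned for it, was not used here.

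The 8 genes, the lists and the tests were chosen with earlier results of these data known. Named by rule were the 8 genes, all relatives where a list has 8 or fewer, the 4 list genes with the lowest p in MYB106SRDX and the 2 in WIN1SRDX, the nearest genes in pattern, the 3 named genes after the last member by difference in MYB106SRDX, and MYB106, WIN1 and SUP. Alternatives are given in the closing section.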

Additional observations from a re-analysis of the deposited data

Results flagged for a closer look

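A replicate stood apart from the other 3 of its group in 18 of 208 sets of 4 arrays examined, over 82 genes; chance gives such a gap in about 5% of sets, and none of the 8 genes described here was among them. In MYB106SRDX, replicate 2 stood apart with the lowest values for CYP76C3 (-6.49), CAD6 (-3.67), MYB106 (2.77) and SUP (3.59) and the highest for CAD4 (1.17). Replicate 3 of that line stood apart for SOT12 (2.78) and replicate 4 for NATA2 (3.26) and AT5G44990 (-0.61). In WIN1SRDX, replicate 1 stood apart for CYP76C1 (0.012), replicate 2 for PHT3;2 (-1.84) and AT5G58840 (-6.21), replicate 3 for ISPD (-0.47), OM66 (1.48) and SOT12 (3.46), and replicate 4 for ABCG33 (-0.90), NATA2 (1.60) and LDA (0.15). In wild type, replicate 2 stood apart for AOX1A (1.11). These are log2 intensities minus that of the 75th percentile of each array.

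For 4 named genes every array of one line lay above every wild-type array and every array of the other line lay below every wild-type array. Their differences between the lines (limma, MYB106SRDX minus WIN1SRDX) were -2.16 for ABCG33 (adjusted p = 5.52e-05), 1.14 for ABCG36 (adjusted p = 4.78e-05), -5.56 for AT5G37990 (adjusted p = 3.2e-06) and -2.73 for CAD4 (adjusted p = 0.000648). AT5G37990 was well above background on 1 of 4 MYB106SRDX arrays, and its difference between the lines was -2.81 with normexp (adjusted p = 1.76e-05). Against wild type all 4 genes passed in MYB106SRDX, but in WIN1SRDX only ABCG36 did. The WIN1SRDX differences from wild type were 0.46 for ABCG33 (adjusted p = 0.145), 1.05 for AT5G37990 (adjusted p = 0.0582) and 0.93 for CAD4 (adjusted p = 0.122).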

How the results depend on the processing

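The 8 genes lay above wild type under every one of 11 other settings, between 6.12 and 9.26 in MYB106SRDX and between 3.102 and 6.33 in WIN1SRDX, and under each omission of 1 array, between 6.29 and 9.87 and between 3.77 and 7.03. The direction under each omission follows from the lack of overlap with wild type. The other settings use the same arrays from which the genes were chosen, so only the sizes are of use here. The counts of all genes called kept within 1.5 times of 10570 in MYB106SRDX, 6604 in WIN1SRDX and 8609 between the lines; leaving out 1 array gave 9133 to 10808, 4844 to 7452 and 7720 to 8632. With the slide as a block the counts were 9873, 5722 and 8057. Under that block 0 ABCG relatives rose in WIN1SRDX, 1 MEP gene rose and 0 fell there, and 1 SABATH relative fell there. In MYB106SRDX 2 starch genes rose and 0 genes of alternative respiration fell. With the replicate number as a block the counts were 10026, 5863 and 8004, but the labels do not say that these numbers pair the samples. On the authors' scale the share of higher calls was 66.5% in WIN1SRDX in place of 53.8%, and 25.6% between the lines in place of 42.8%, while the median of all genes moved from 0.01 to 0.12 and from -0.04 to -0.20. On that scale no starch gene fell in WIN1SRDX, and NAC017, LDA and BAM7 did not pass there (adjusted p = 0.113, 0.0519 and 0.0607). With normexp TPS10, ABCG39 and ABCG41 in MYB106SRDX turned from lower to 0.0039, 0.079 and 0.23 above wild type; the cause was not tested. Over the other named genes, 4593 values kept their side of the threshold, 132 lost the call, 42 gained it and 3 that had a call turned. Values that passed in neither setting are among the 4593 even where their direction changed. Low signal over background limits the size of folds from wild type, and 4 arrays a group limit the precision.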
